A study of Rattus norvegicus with 6 samples.

Results

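The 9 subunit genes of Polycomb repressive complex 1 (PRC1) described here were followed in rat myocardium, chosen by the protein complex their products belong to and found by gene symbol. All 9 members, Ring1, Rnf2, Bmi1, Pcgf1, Pcgf3, Pcgf5, Pcgf6, Rybp and Cbx8, were present among the 32623 genes of the deposited table. Total RNA had been sequenced from myocardial tissue of wild-type male rats in 2 groups of 3 samples. Ischemia rats were anesthetized with isoflurane, ventilated, opened at the left chest and had the left anterior descending coronary artery tied for 30 min, with ST elevation on the electrocardiogram as the sign of occlusion. The study describes this surgery for its ischemia/reperfusion model, which continues with reperfusion. Sham rats carry the same 30 min label, and no ligation is described for them. Strain and age are not given in the sources used here, nor are the part of the heart sampled and the exact time of sampling. Whether a sample pooled animals is not given either, so p-values measure the spread between these samples only.

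PRC1 is an E3 ubiquitin ligase that attaches a single ubiquitin to the tail of histone H2A, a mark mostly found on silenced genes. Each complex is built on a catalytic RING subunit, Ring1 (RING1A) or Rnf2 (RING1B), held together with a Polycomb group RING finger (PCGF) subunit that decides which further partners can join. Complexes with Bmi1 (Pcgf4) or Pcgf2 can carry a CBX chromodomain protein such as Cbx8, which binds the methylated histone H3 tail made by PRC2, whereas variant complexes carry Rybp or its paralog Yaf2 in that place and include those built on Pcgf1, Pcgf3, Pcgf5 or Pcgf6. The study is about H2A ubiquitination in ischemic heart, and the question here was whether RNA of the writer complex differed between ischemia and sham. Transcript levels give no measure of the protein, of ligase activity or of the histone mark.

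In these hearts none of the 9 subunit genes passed the test. By edgeR's quasi-likelihood test with Benjamini-Hochberg adjustment over 13964 genes, 0 of 9 were called at an adjusted p under 0.05, while 5.18% of all tested genes were called higher in ischemia and 1.53% lower. At an unadjusted p under 0.05 there were 2 of 9 members, Pcgf6 and Pcgf5, both higher in ischemia, against 32.4% of all tested genes. DESeq2 found 3 of 9, against 38.6% of all tested genes in its own fit. FPKM values (fragments scaled to gene length and library depth) of the ischemia samples lay outside the sham range for Pcgf6 and Pcgf5 (above) and Cbx8 (below), 3 of 9, against 38.6% of all tested genes. With 9 members these shares cannot be told from the background, and on TMM-scaled CPM (counts scaled by the trimmed mean of M-values) 4 of 9 were apart, against 41.1%. Limma on log2(FPKM + 0.1) called 0 of the 9 (7.96% of all tested genes) and DESeq2 2 of the 9 (27.3% of all tested genes). The median log2 fold change was 0.18 over the 9 members and -0.0015 over all tested genes, with 5 members above and 4 below 0.

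Promoter sequence is shown for the 3 genes whose groups did not overlap, so that the DNA in front of them can be compared. The windows are the 250 bases before the gene start, written 5′ to 3′ on the strand of the gene, from RefSeq for the rat build GRCr8. Capitals mark the letters CACGTG (the E-box read by Myc and Max) and TGACGTCA (the cyclic AMP response element), both of which read the same on either strand.
Pcgf5, chr1:243476201-243476450, plus strand: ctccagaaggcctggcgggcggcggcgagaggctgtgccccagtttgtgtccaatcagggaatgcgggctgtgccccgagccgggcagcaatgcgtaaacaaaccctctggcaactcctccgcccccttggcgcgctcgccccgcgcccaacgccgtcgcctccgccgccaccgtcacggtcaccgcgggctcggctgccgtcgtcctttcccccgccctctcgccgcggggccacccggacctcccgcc
Pcgf6, chr1:255886267-255886516, minus strand: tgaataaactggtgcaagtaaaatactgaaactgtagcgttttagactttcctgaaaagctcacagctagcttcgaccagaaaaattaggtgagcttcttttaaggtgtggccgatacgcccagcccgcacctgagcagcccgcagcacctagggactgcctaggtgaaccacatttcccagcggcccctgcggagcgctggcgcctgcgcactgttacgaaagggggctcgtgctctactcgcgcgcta
Cbx8, chr10:104795501-104795750, minus strand: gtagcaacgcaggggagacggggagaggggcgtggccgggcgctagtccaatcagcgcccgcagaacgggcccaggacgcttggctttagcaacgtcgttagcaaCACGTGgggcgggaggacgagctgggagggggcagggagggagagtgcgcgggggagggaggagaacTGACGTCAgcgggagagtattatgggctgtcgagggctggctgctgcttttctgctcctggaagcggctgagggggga
Of the 9 members 8 had a window in the RefSeq table, and Rybp was not in it. CACGTG was found in 5.59% and TGACGTCA in 1.59% of the 33469 promoter windows of the table. Among the 8 members Cbx8 alone held them, 1 of each, and they did not overlap. The members' windows were rich in CpG. Pcgf5 had 32 CpGs and 73.6% GC, Ring1 had 31, Rnf2 27, Cbx8 and Pcgf3 20 each, Pcgf1 17, Pcgf6 16 and Bmi1 13, where the median window of the table had 5 CpGs and 51.2% GC. All 8 therefore lay above the median. These letters are a description of the windows, and binding was not measured here.

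The samples themselves differed in ways that touch the members. Total counts were 68529126 to 79591989 per sample, and the 9 members together took 6941 to 15053 of them, with the most in ischemia 2 and the fewest in sham 2. The rats are described as male, yet in sham 1 only 26 reads fell on 3 Y-linked genes, where each other sample had 1772 to 4318. Cardiomyocyte markers were abundant in every sample, with a summed FPKM of 28108 to 45741 in sham and 13892 to 25922 in ischemia. EdgeR called 0 of the 9 tested genes of that list, and the genes did not move together. Actc1 had 10338, 10827 and 10210 in sham and 2654, 2879 and 4709 in ischemia. Myl3 had 796, 9024 and 1021 in sham and 5691, 3180 and 5780 in ischemia. Atrial markers (5 genes) summed to 48344 and 39345 in sham 1 and 3 but 216 in sham 2, and to 1279 to 9610 in ischemia. Nppa made up most of the sums of ischemia 2 and 3, at 2051 and 1251 against 67.7 in sham 2. Myl7, Myl4, Sln and Bmp10 were each lower in ischemia 2 and 3 than in sham 2. Sln had 3649, 15.88 and 3239 in sham and 414.7, 3.891 and 3.804 in ischemia. In ischemia 1, Nppa, Myl7, Myl4 and Sln lay between sham 2 and the other sham samples, and Bmp10 below all sham samples. Neutrophil and monocyte markers summed to 106 to 187 in sham and 1306 to 9110 in ischemia, highest in ischemia 2, and 14 of the 15 tested genes of that list of 17 were called higher, while 2 were at 0 in all sham samples. Fibroblast markers summed to 698 to 2247 in sham and 271 to 706 in ischemia, and smooth muscle and pericyte markers to 209 to 937 and 89.4 to 287. T, B and NK cell markers were low in all samples and did not overlap, at 8.85 to 14.4 in sham and 16.9 to 28.5 in ischemia. The part of these differences in the members' values was not tested. In bulk tissue, fewer cells of a type and less RNA per cell cannot be told apart.

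The catalytic subunits came first. Ring1 (ENSRNOG00000000467, chromosome 20, 3812287-3815834, minus strand, in coordinates of the deposited table, whose build is not stated) encodes RING1A. Its FPKM was 18.1, 15.4 and 18.9 in sham 1 to 3 and 18.9, 12.4 and 13.3 in ischemia 1 to 3. Ischemia 1 was level with the highest sham sample and the other two ischemia samples lay below all sham samples. The log2 fold change of Ring1 was -0.31 ± 0.22 (SE, n = 3 per group), with a 95% interval of -0.85 to 0.23 and an edgeR adjusted p of 0.362. It was -0.16 without ischemia 2 and -0.54 without ischemia 1.

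Rnf2 (ENSRNOG00000002454, chromosome 13, 68830620-68858809, minus strand) encodes RING1B, generally regarded as the main H2A ligase subunit. Its FPKM was 10.2, 7.32 and 9.33 in sham and 8.42, 15.2 and 8.79 in ischemia. Ischemia 2 stood above all other samples and the remaining ischemia samples fell inside the sham range. For Rnf2 the log2 fold change was 0.18 ± 0.24 (95% interval -0.40 to 0.75, edgeR adjusted p 0.626), which leaves room for a change from 0.759-fold to 1.68-fold. Without ischemia 2 it was -0.08, so its direction rested on that sample.

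The 2 catalytic genes together summed to 26.4 ± 3.20 FPKM in sham and 25.7 ± 3.06 in ischemia (SD, n = 3). Within each sample the ratio of Rnf2 to Ring1 FPKM was 0.563, 0.476 and 0.494 in sham and 0.446, 1.23 and 0.659 in ischemia. Ischemia 2 was the only sample in which Rnf2 exceeded Ring1, and the groups overlapped. The 3 genes below had the profile most like that of Rnf2 over the 6 samples, by the root mean square difference of centred log2 CPM (counts scaled to library size) among 12225 candidates. They were Brd1 (0.0513), Jak1 (0.0522) and Ric1 (0.0551). Brd1, a bromodomain protein of a histone acetyltransferase complex, had FPKM of 8.26, 5.74 and 7.29 in sham and 6.45, 11.6 and 7.43 in ischemia, with a high value in ischemia 2 as well. The closest of 12225 candidates over 6 samples are close by selection. Ischemia 2 was the highest ischemia sample for 49.3% of all tested genes on FPKM. Shared regulation was not tested.

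**Figure D1:**
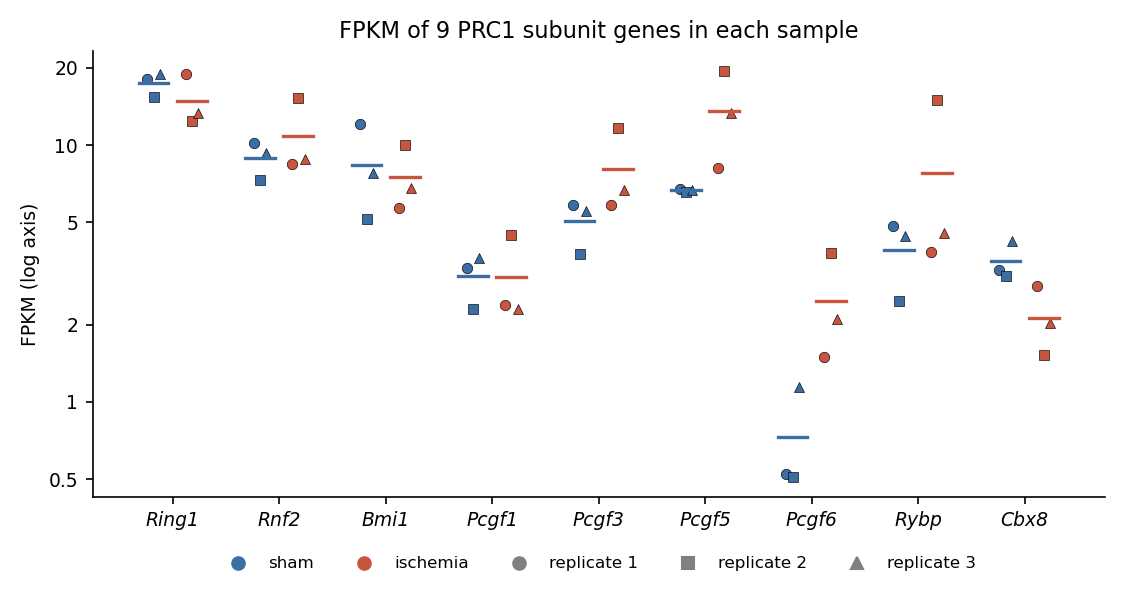
FPKM (log axis) of each of the 9 genes in 3 sham (blue) and 3 ischemia (red) samples, with the replicate number given by the marker shape and the group mean by a bar. Pcgf5 and Pcgf6 lie higher in every ischemia sample than in any sham sample and Cbx8 lower, while ischemia 2 (red square) is the highest ischemia sample for 7 of the 9 genes.

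Among the PCGF subunits, Pcgf6 showed the widest displacement of the members. Pcgf6 (ENSRNOG00000020250, chromosome 1, 266811420-266830976, minus strand) is the PCGF subunit of a variant complex that contains the DNA-binding proteins Mga, Max and E2f6. It was the least abundant member in sham, with 84, 87 and 174 counts and FPKM of 0.526, 0.511 and 1.15. In ischemia it had 258, 598 and 311 counts and FPKM of 1.496, 3.81 and 2.09. Each ischemia sample lay above each sham sample, with ischemia 1 closest to sham 3. The mean FPKM was 0.728 ± 0.363 in sham and 2.47 ± 1.20 in ischemia (SD, n = 3), and the exact two-sided permutation p was 0.1, the smallest that 3 against 3 can give. The log2 fold change of Pcgf6 was 1.67 ± 0.48 (95% interval 0.53 to 2.82), with an unadjusted p of 0.0113 and an edgeR adjusted p of 0.0777.

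Pcgf5 (ENSRNOG00000018532, chromosome 1, 254974789-255086207, plus strand) belongs to the variant complexes that lay down H2A ubiquitin broadly, a role it shares with Pcgf3. Its FPKM was 6.77, 6.56 and 6.67 in sham, the tightest group of any member (6.67 ± 0.106, SD), and 8.10, 19.4 and 13.3 in ischemia (13.6 ± 5.66). The groups did not overlap, and the spread was far wider in ischemia than in sham. For Pcgf5 the log2 fold change was 0.92 ± 0.31 (95% interval 0.16 to 1.68), with an unadjusted p of 0.0248, an adjusted p by edgeR of 0.111 and a permutation p (exact) of 0.1. A U6 gene on the opposite strand within Pcgf5 had 0 reads in all samples, and no other member overlapped a gene of the table.

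The calls for Pcgf5 and Pcgf6 depended on the method. DESeq2 called both higher, with adjusted p-values of 0.0492 and 0.00807, in a fit that called 14.8% of all tested genes higher. Without ischemia 1, edgeR also called both, with adjusted p-values of 0.0281 and 0.0463, when 10.7% of all genes were called higher. Over the 15 alternatives tried the adjusted p of Pcgf5 ranged from 0.0281 to 0.254, and over the 14 that tested Pcgf6 from 0.00807 to 0.213. On log2(FPKM + 1), which shrinks low values, limma gave Pcgf6 0.97 in place of 1.67. Without sham 1, the sample with few Y-linked reads, the log2 fold changes of Pcgf5 and Pcgf6 were 0.88 and 1.47, and without sham 2 they were 1.01 and 1.55. Without ischemia 2, highest in myeloid markers, they were 0.64 and 1.29.

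Pcgf3 (ENSRNOG00000000062, chromosome 14, 2247808-2297155, minus strand), the closest paralog of Pcgf5, had FPKM of 5.85, 3.77 and 5.52 in sham and 5.83, 11.6 and 6.66 in ischemia. Ischemia 1 was just under sham 1, so the groups overlapped narrowly. The log2 fold change of Pcgf3 was 0.58 ± 0.29 (95% interval -0.12 to 1.28, edgeR adjusted p 0.211), and it was 0.29 without ischemia 2 and 0.74 without ischemia 1. On TMM-scaled CPM, sham samples had 8.45, 6.75 and 7.84 and ischemia samples 8.59, 15.7 and 10.2, and the groups no longer overlapped.

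Pcgf1 (ENSRNOG00000008360, chromosome 4, 113910685-113913687, plus strand) pairs with Bcor and with Kdm2b, which brings the complex to CpG-rich promoters. FPKM of Pcgf1 was 3.32, 2.30 and 3.62 in sham and 2.39, 4.46 and 2.30 in ischemia. Ischemia 2 was above the sham range, and ischemia 3 and sham 2 were level at its lower end. The log2 fold change of Pcgf1 was -0.10 ± 0.33 (95% interval -0.90 to 0.69, edgeR adjusted p 0.845), and it was -0.41 without ischemia 2 and 0.026 without ischemia 3.

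Bmi1 (ENSRNOG00000016585, chromosome 17, 85364483-85368208, plus strand) is, beside Pcgf2, a PCGF subunit of canonical complexes and a known repressor of the Cdkn2a locus. Its FPKM was 12.1, 5.14 and 7.77 in sham and 5.69, 10.03 and 6.78 in ischemia, all ischemia values inside the sham range. In the fit Bmi1 had a log2 fold change of -0.22 ± 0.33 (95% interval -1.02 to 0.58, edgeR adjusted p 0.661), and it turned to 0.09 without sham 1.

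**Figure D2:**
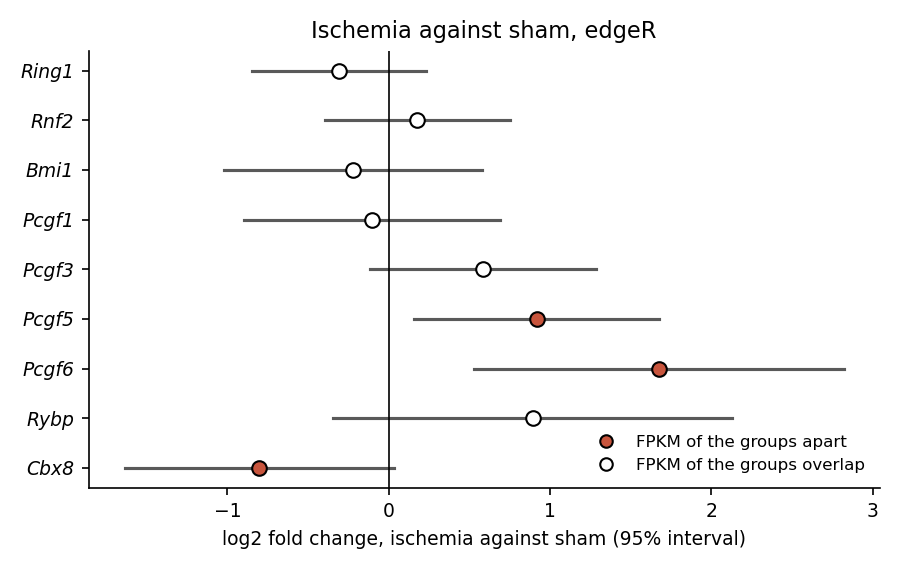
Log2 fold change of ischemia against sham for each member, from the edgeR fit on 3 and 3 samples, with lines for the 95% interval and filled points where FPKM of the groups did not overlap. The intervals of Pcgf5 (0.16 to 1.68) and Pcgf6 (0.53 to 2.82) lie above 0, before adjustment over 13964 genes, and the other 7 include 0.

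The makeup of the PCGF family was also compared within each sample, as the percent of the FPKM summed over its 6 genes (the 5 members and Pcgf2). The sum was 32.1 ± 6.61 FPKM in sham and 42.2 ± 12.3 in ischemia (SD, n = 3), with overlapping groups. Pcgf6 made up 1.44%, 2.09% and 3.26% of it in sham and 4.54%, 6.79% and 5.57% in ischemia. Bmi1 made up 33.1%, 21.0% and 22.1% in sham and 17.3%, 17.9% and 18.04% in ischemia. Both shares were apart between the groups, Pcgf6 upward and Bmi1 downward, although FPKM of Bmi1 itself overlapped between the groups.

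The share of Pcgf3 went from 15.7% ± 0.302 to 18.7% ± 1.72 and that of Pcgf1 from 9.59% ± 0.646 to 7.11% ± 0.916 (SD, n = 3), also without overlap. FPKM of Pcgf3 and of Pcgf1 did overlap between the groups. Pcgf5 held 18.5%, 26.8% and 19.0% in sham and 24.6%, 34.6% and 35.3% in ischemia, where ischemia 1 fell below sham 2. The non-member Pcgf2 overlapped as well, at 25.6% ± 3.86 and 19.3% ± 8.44. Shares of a common sum are not independent of each other, and no test was made on them.

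**Figure D3:**
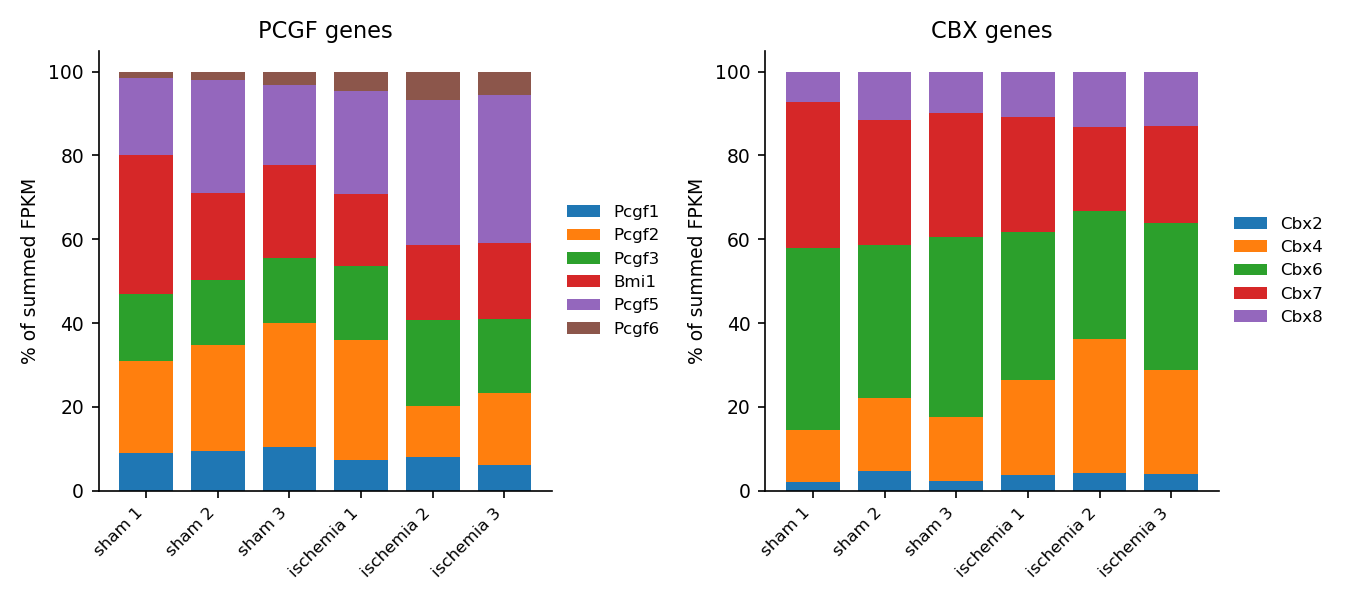
Percent of the FPKM summed over 6 PCGF genes (left) and over 5 CBX genes (right) in each of the 6 samples, stacked to 100%. Pcgf6, in brown at the top of the left panel, takes 1.44% to 3.26% in sham and 4.54% to 6.79% in ischemia, and Cbx8, in purple at the top of the right panel, takes 7.26% to 11.5% in sham and 10.7% to 13.1% in ischemia.

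Rybp (ENSRNOG00000005353, chromosome 4, 132689531-132740938, minus strand) binds the RING subunits in variant complexes, stimulates their ligase activity and itself reads ubiquitinated H2A. Its FPKM was 4.83, 2.47 and 4.41 in sham and 3.84, 14.9 and 4.54 in ischemia. Ischemia 2 stood over 3 times above any other sample, and the other two ischemia values fell inside the sham range. Its log2 fold change was 0.89 ± 0.51 (95% interval -0.35 to 2.13, edgeR adjusted p 0.266), or 0.10 without ischemia 2. Its paralog Yaf2 was the more abundant of the pair in sham. The FPKM ratio of Rybp to Yaf2 was 0.252, 0.176 and 0.265 in sham and 0.226, 1.05 and 0.332 in ischemia, so Rybp exceeded Yaf2 in ischemia 2 alone.

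Cbx8 (ENSRNOG00000048113, chromosome 10, 108148073-108150511, minus strand), the chromodomain subunit among the members, was the only member with all ischemia samples under all sham samples. It had 339, 342 and 416 counts and FPKM of 3.27, 3.10 and 4.22 in sham, and 317, 155 and 196 counts and FPKM of 2.83, 1.52 and 2.03 in ischemia. Ischemia 1 was close to sham 2 and ischemia 2 was farthest from sham. The log2 fold change of Cbx8 was -0.80 ± 0.35 (95% interval -1.64 to 0.03), with an unadjusted p of 0.0576, an adjusted p by edgeR of 0.166 and a permutation p (exact) of 0.1. Leaving out each sample in turn gave values from -1.08 to -0.58, and none was called.

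The other CBX chromodomain genes were looked at beside Cbx8, a choice made after their values were seen. All 5 genes of the family had negative log2 fold changes, with a median of -0.80, and edgeR called 0 of 5, with 2 at an unadjusted p under 0.05 by edgeR, against 32.4% of all tested genes. Cbx6 and Cbx7 were called lower by DESeq2 and by edgeR without ischemia 1. Those fits called 1742 and 1115 of 13964 tested genes lower, and 27.3% and 18.7% in either direction. Cbx7 had FPKM of 15.7, 8.12 and 12.6 in sham and 7.25, 2.34 and 3.62 in ischemia, a log2 fold change of -1.502 ± 0.46 (edgeR adjusted p 0.0876). Cbx6 had FPKM of 19.6, 9.86 and 18.3 in sham and 9.29, 3.55 and 5.44 in ischemia, a log2 fold change of -1.42 ± 0.41 (edgeR adjusted p 0.0791). Together with Cbx8 these made 3 of 5 genes with groups apart, all downward. Of 13964 tested genes, 2094 were apart downward and 38.6% in either direction. FPKM summed over the 5 genes was 45.1, 27.1 and 42.6 in sham and 26.3, 11.6 and 15.6 in ischemia. Ischemia 1 and sham 2 were nearly level, and the remaining samples were well separated. Cbx8 kept a share of 9.55% ± 2.12 of that sum in sham and 12.3% ± 1.33 in ischemia, with overlapping groups.

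The order of levels in sham, by mean FPKM, was Ring1 (17.4), Rnf2 (8.94), Bmi1 (8.34), Pcgf5 (6.67), Pcgf3 (5.05), Rybp (3.90), Cbx8 (3.53), Pcgf1 (3.08) and Pcgf6 (0.728). Of these neighbours, Ring1 and Rnf2, Pcgf5 and Pcgf3, and Pcgf1 and Pcgf6 did not overlap between genes, and the other neighbours did. In ischemia the order was Ring1 (14.9), Pcgf5 (13.6), Rnf2 (10.8), Pcgf3 (8.04), Rybp (7.77), Bmi1 (7.499), Pcgf1 (3.05), Pcgf6 (2.47) and Cbx8 (2.12), and only Bmi1 and Pcgf1 were neighbours without overlap. Ring1 was first in both groups. Pcgf6 was below Cbx8 in all sham samples, with FPKM ratios of 0.161, 0.165 and 0.272, and the ratio in ischemia was 0.529, 2.51 and 1.03, so Pcgf6 stayed below Cbx8 in ischemia 1, was about level in ischemia 3 and stood above it in ischemia 2. Among all tested genes the members were of middling level, from above 17.4% of them (Pcgf6) to above 71.3% (Ring1) by mean FPKM over the 6 samples.

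The samples in which members were high or low are given beside the same counts over all genes, with no test. Within sham, sham 2 had the lowest FPKM for 9 of 9 members, against 63.8% of all tested genes, and on TMM-scaled CPM it was lowest for 5 of 9, against 41.2%. Sham 2 also had the highest share of mitochondrial reads, 21.4% against 15.4% to 18.7% elsewhere. Within ischemia, ischemia 2 was highest for 7 of 9 members on both scales, and lowest for Ring1 and Cbx8. Ischemia 2 was the highest ischemia sample for 49.3% of all tested genes on FPKM and 41.0% on TMM-scaled CPM. Values of the members within 1 sample share its library, so they are not separate observations.

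**Figure D4:**
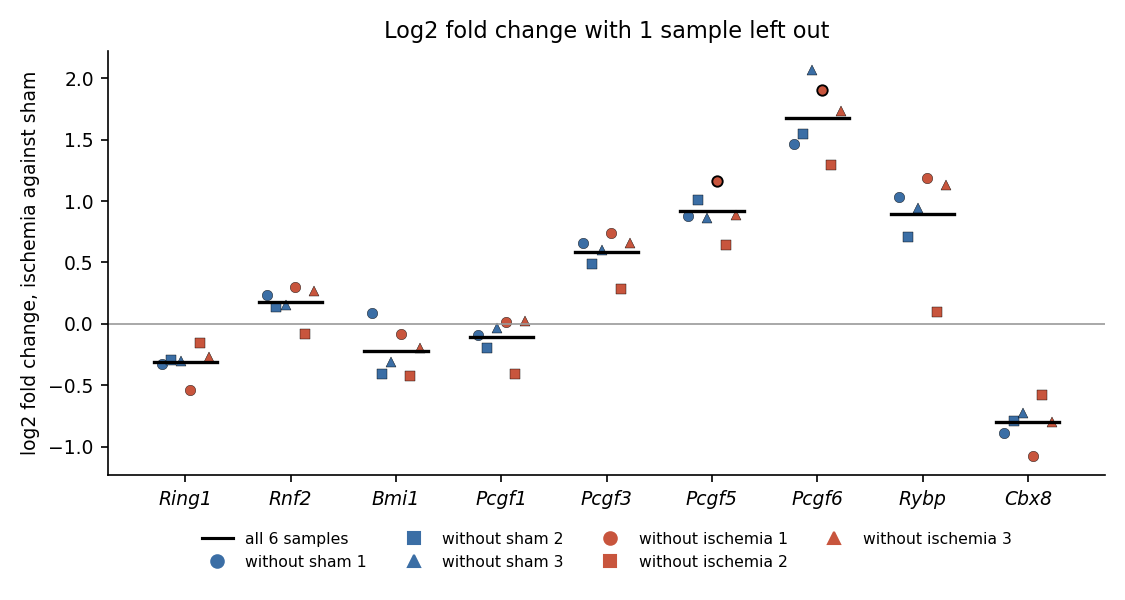
Log2 fold change of each member from the edgeR fit on all 6 samples (black bar) and with 1 sample left out (blue for a sham, red for an ischemia sample, shape for its number), with a heavy outline where the adjusted p was under 0.05. Without ischemia 2 Rybp drops to 0.10 and Rnf2 to -0.08, and the outlined points are Pcgf5 and Pcgf6 without ischemia 1.

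The other genes of the pathway were counted from lists of known subunits and enzymes. Of 32 other PRC1 subunits and partners 31 were tested, and edgeR called 0 in either direction, with 8 (25.8%) at an unadjusted p under 0.05, against 32.4% of all tested genes. DESeq2 called 4 higher and 4 lower, in a fit that called 27.3% of all tested genes, and limma on log2(FPKM + 0.1) 1 each way (7.96% of all tested genes). At a mean FPKM of at least 5 edgeR called 1 of 25 higher (12.5% of all genes in that fit), without ischemia 1 it called 1 higher and 4 lower (18.7%), and without ischemia 2 it called 1 lower (4.09%). Their log2 fold changes were positive for 12 and negative for 19, with a median of -0.14, and 12 of 31 (38.7%) had groups apart, 7 upward and 5 downward, next to 38.6% of all tested genes. Max, the DNA-binding partner of Mga in the Pcgf6 complex and of Myc elsewhere, had the highest value, 1.08 ± 0.33 (edgeR adjusted p 0.0867), with FPKM of 26.5, 19.2 and 29.1 in sham and 40.5, 90.9 and 38.3 in ischemia. Auts2, a partner of the Pcgf3 and Pcgf5 complexes, had the lowest, -1.91 ± 0.43 (edgeR adjusted p 0.0510), with FPKM of 7.31, 6.95 and 7.15 in sham and 2.99, 0.992 and 2.02 in ischemia. Neither gene had overlapping groups.

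The Pcgf6 complex was followed further through its partners, chosen after their values were seen. Wdr5, a scaffold shared with histone methyltransferases, had FPKM of 10.1, 11.2 and 11.6 in sham and 17.7, 24.3 and 19.7 in ischemia, a log2 fold change of 0.81 ± 0.19 with an edgeR adjusted p of 0.0528. Hdac1, a histone deacetylase, had a log2 fold change of 0.68 ± 0.23 (edgeR adjusted p 0.107) and Tfdp1, the dimer partner of E2f factors, 0.53 ± 0.15 (edgeR adjusted p 0.0762), both with every ischemia sample above every sham sample. Log2 fold changes of the remaining listed partners were 0.11 for Mga, -0.02 for L3mbtl2, -0.14 for E2f6, -0.14 for Hdac2 and -0.19 for Cbx3, all with overlapping groups and with adjusted p-values by edgeR of 0.501 to 0.957. With Max, groups were thus apart upward for 4 of the 9 partners. Of 13964 tested genes, 3295 were apart upward and 38.6% were apart in either direction.

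Among E2 enzymes, other H2A ligases and readers of the mark, 11 of 14 genes were tested and edgeR called 0, with 3 (27.3%) at an unadjusted p under 0.05, against 32.4% of all tested genes. DESeq2 called 2 higher and 1 lower, in a fit that called 27.3% of all tested genes, and edgeR without ischemia 1 also called 2 higher and 1 lower, against 18.7%. The highest was Dnajc2 (ZRF1), which binds ubiquitinated H2A, at 1.32 ± 0.37 (edgeR adjusted p 0.0746), with FPKM of 5.84, 3.41 and 4.68 in sham and 7.16, 19.7 and 10.4 in ischemia. Ube2d1 was the lowest, an E2 enzyme of the UBCH5 family at -1.16 ± 0.40 (edgeR adjusted p 0.114), with FPKM of 23.1, 32.9 and 21.9 in sham and 18.4, 8.35 and 11.1 in ischemia. Its paralog Ube2d3, chosen after its value was seen, had FPKM of 85.9, 70.0 and 89.2 in sham and 125, 232 and 167 in ischemia, a log2 fold change of 1.004 ± 0.24 (edgeR adjusted p 0.0537). The third paralog of the list, Ube2d2, had a log2 fold change of -0.16 ± 0.16 (edgeR adjusted p 0.507) with overlapping groups.

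Of the enzymes that remove the mark and their partners, 12 of 14 were tested. Both edgeR and DESeq2 called 0 of them, in fits that called 6.71% and 27.3% of all tested genes. At an unadjusted p under 0.05 by edgeR there were 2 (16.7%), against 32.4% of all tested genes. Usp16 had the highest value, 1.21 ± 0.49 (edgeR adjusted p 0.149), and Usp46 the lowest, -0.42 ± 0.22 (adjusted p 0.223). All 11 PRC2 subunits were tested and edgeR and DESeq2 called 0, against 6.71% and 27.3% of all tested genes in those fits. At an unadjusted p under 0.05 by edgeR there was 1 (9.09%), against 32.4% of all tested genes. The median of the 11 was 0.43, highest in Ezh2 (0.83 ± 0.47, edgeR adjusted p 0.257) and lowest in Phf1 (-0.45 ± 0.18, adjusted p 0.143). PRC2 had 0 of 11 genes with groups apart, against 38.6% of all tested genes.

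**Figure D5:**
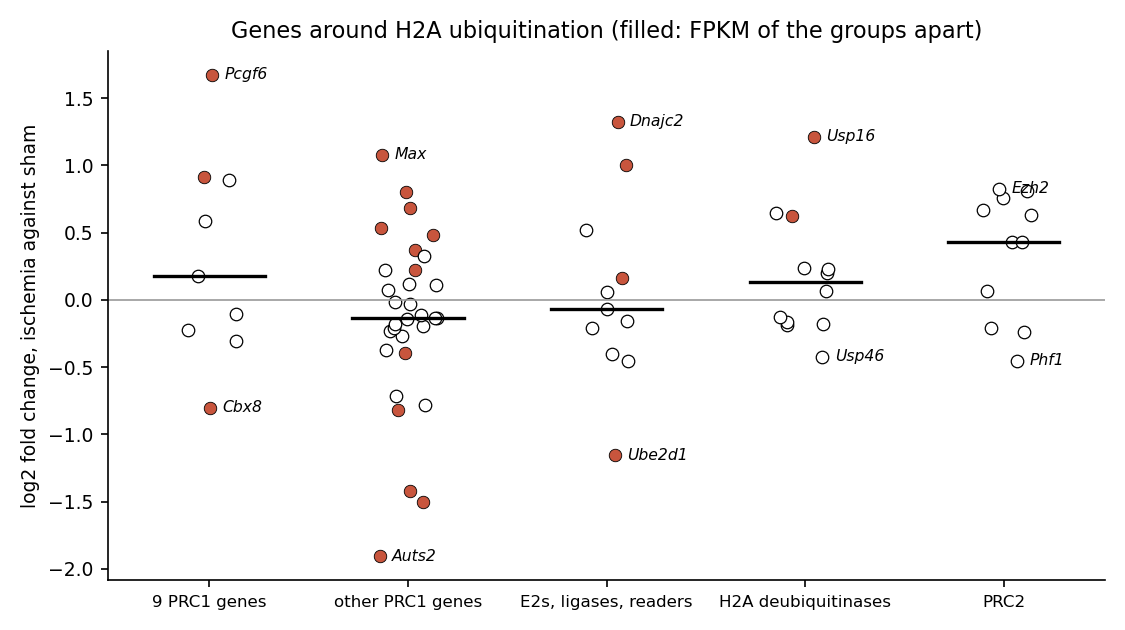
Log2 fold change of ischemia against sham for the tested genes of 5 lists, 1 point per gene, with a bar at each median, filled where FPKM of the groups did not overlap, and names at the highest and lowest gene of each list. In this edgeR fit no gene drawn passed the adjusted threshold. DESeq2 called 2 of the 9 members, 8 of 31 other PRC1 genes and 3 of 11 E2s, ligases and readers, against 27.3% of all tested genes. The medians are 0.18 for the 9 members, -0.14 for the other PRC1 genes and 0.43 for PRC2.

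For scale, Hspb1, the gene of Hsp27 which the study is about, was called higher in the same fit. Its FPKM was 315, 197 and 366 in sham and 1517, 2264 and 3293 in ischemia, a log2 fold change of 2.96 ± 0.39 (edgeR adjusted p 0.0272). It was called in 10 of 15 alternatives and not in the other 5, the replicate block and the fits without sham 1, 2 or 3 or ischemia 3, where the log2 fold change was 2.58 to 3.10 and edgeR called no gene at all (3020 to 3809 at an unadjusted p under 0.05). The 95% intervals of the 2 catalytic genes lay between -0.85 and 0.75 on the log2 scale.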

How the data were processed

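Total RNA of 6 rat myocardium samples was sequenced from libraries of a stranded kit. The authors deposited 1 table of 32623 genes with raw read counts and FPKM values. Per the submitters' processing notes STAR and HTSeq were used; versions, genome build and strand setting are not given in the sources used here. The deposited counts were whole numbers, not normalized, and FPKM had been scaled by the authors for gene length and depth, with genes without reads at 1e-04.

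The 13964 genes whose mean FPKM reached 0.5 were scaled by TMM on their counts, and ischemia was tested against sham with edgeR's quasi-likelihood test and no covariate. Two-sided p-values were adjusted over these genes at a threshold of 0.05. Standard errors came from the F statistic. Single values were compared by exact permutation. Total counts of 68529126 to 79591989 set the precision, and 3 counts corresponded to 0.0377 to 0.0438 CPM, which covers counting error only. No replicate pair of a group had identical counts in more than 0.179% of genes. The alternatives were other scalings, filters and tools, limma on log2(FPKM + 0.1) and log2(FPKM + 1), no mitochondrial genes, a replicate block and each sample left out.

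The members and lists were chosen with earlier results of these data known. Named by rule were all members, the genes called and the extremes of each list, the 3 genes most like Rnf2, and Hspb1. Promoters were matched by symbol to RefSeq GRCr8. Pathway annotation columns were not used. The software was DESeq2 1.42.0, limma 3.58.1 and edgeR 4.0.16 under R 4.3.3, with matplotlib 3.10.9 under Python 3.11.15.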

Additional observations from a re-analysis of the deposited data

How the results depend on the processing

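Of 132 alternative fits of single members, 124 kept the direction and side of the threshold, 4 passed it and 4 reversed. DESeq2 gave 2 members called higher, Pcgf5 (0.89) and Pcgf6 (1.65), and 2071 genes higher and 1742 lower. Scaling to equal totals left 83 and no filter left 93 genes lower, against 214. The stricter filter, a mean FPKM of at least 5, left out Pcgf1, Pcgf6 and Cbx8. With 1 sample left out, members called higher ranged from 0 to 2, all genes higher from 0 to 1490 and lower from 0 to 1115. No gene was called without sham 1, 2 or 3 or ischemia 3, while 3020 to 3809 had an unadjusted p under 0.05 by edgeR. Without ischemia 2 there were 462 higher and 109 lower. With a sample left out Pcgf5 ranged from 0.64 to 1.16 and Pcgf6 from 1.29 to 2.07, and limma on log2(FPKM + 1) gave Pcgf6 0.97. The reversals were all with a sample left out, where Rnf2 ranged from -0.084 (without ischemia 2) to 0.30, Bmi1 from -0.43 to 0.090 (without sham 1) and Pcgf1 from -0.41 to 0.026 (without ischemia 3, and 0.014 without ischemia 1). The cause was not tested.

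Replicate numbers are shared by different animals, and deviations of same-numbered samples had a mean correlation of -0.11 (pairs -0.05, -0.08 and -0.19) against 0.05 for other pairs, so no pairing was shown. With the replicate block edgeR called 0 genes higher and 0 lower, with 3349 at an unadjusted p under 0.05, and 0 members. The comparison of groups on TMM-scaled CPM was chosen after seeing the data.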
